A study of Mus musculus with 4 samples.

Results

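The stretch of mouse chromosome 7 described here runs from the lowest start to the highest end of the GHP and GHN segments, 2 series of DNA segments cloned into reporter plasmids and tested as enhancers. Its coordinates are chr7:70644203-135816257 in mm9, a span of 65.2 Mb, and 65.0 Mb remained after the beta-globin interval (chr7:110930000-111070000, 140 kb) was set aside. The members are the H3K27ac peaks that lie in it. There were 740 of 24332 peaks in the pooled G1E list and 833 of 26384 in the pooled G1E-ER4+E2 list, and the replicate lists held 651 of 21557 and 690 of 23451 (G1E) and 906 of 29087 and 880 of 26740 (G1E-ER4+E2). In each list 1 peak crossed the border of the region and 8 to 9 peaks of the beta-globin interval were left out. Of the tested segments, 120 GHP and 11 GHN segments were used, and 4 that lie in the beta-globin interval were left out. The sources used here do not spell out the names GHP and GHN.

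Chromatin carrying acetylated histone H3 lysine 27 was collected by immunoprecipitation from cultured mouse erythroid cells of strain 129 and sequenced, with 2 replicates of each cell line. G1E is an untreated, immortalized progenitor line made from embryonic stem cells in which Gata1 was knocked out. G1E-ER4 is the same line transduced with a virus that expresses GATA1-ER, a rescue GATA1 protein switched on by hormone, and its cells were given estradiol at 10 nM over 24 h, a sample group written G1E-ER4+E2. No sample of untreated G1E-ER4 cells was analysed here, so the transduction, the hormone and the restored GATA1 cannot be told apart, and nothing in the labels says whether the replicates were separate cultures.

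H3K27ac is deposited by acetyltransferases such as EP300 on nucleosomes beside active promoters and enhancers, and its spread over a locus is used as a map of regulatory chromatin. GATA1 is the zinc-finger transcription factor on which red cell maturation depends. It often binds DNA together with TAL1, and G1E cells, which lack it, stay arrested as progenitors until it is restored. The peaks are broad, being intervals of enriched 200-bp steps joined by the caller, so both the number of peaks and the length they cover are measured. That length is called acetylated length below.

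Beside the GHP and GHN segments, 2 TAL1-bound segments tested as enhancers lie in the region, and their cloning primers are shown since they are the only primer sequences at hand for tested segments of the region. TAL1_4157 (chr7:91871089-91871876, mm9) lay in a peak in all 6 lists, 3.6 kb wide in pooled G1E and 4.0 kb in pooled G1E-ER4+E2. TAL1_4249 (chr7:133185586-133186156, mm9) also lay in a peak in all 6 lists, 6.0 kb and 7.4 kb wide. The primers, written 5′ to 3′ in lower case with no capitals, mark the ends of these segments.
TAL1_4157 forward: catttacgggacacctcaaacacc
TAL1_4157 reverse: tgggacccatgcctcacatatact
TAL1_4249 forward: taagcacccagcctggcatt
TAL1_4249 reverse: actagaggatgtgtcggatgggat

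Peaks covered more of the region in both samples with restored GATA1 than in either sample without it. In G1E the peaks covered 5.81% and 5.18% of it in replicates 1 and 2, and in G1E-ER4+E2 they covered 7.87% in each. The mean was 5.49% ± 0.452 in G1E and 7.87% ± 0.000435 in G1E-ER4+E2 (SD, n = 2 each), a difference of 2.37 percentage points (two-sided exact permutation test p = 0.333, which is the smallest p that 2 samples against 2 can give, adjusted p = 0.381 over 8 tests). In length this was 3.78 and 3.37 Mb against 5.12 and 5.12 Mb. The pooled lists gave 4.12 Mb in G1E and 6.31 Mb in G1E-ER4+E2, a ratio of 1.53, and pairs of replicates gave ratios from 1.35 to 1.52.

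The rest of chromosome 7 differed less between the lines. It had 4.27 and 3.44 Mb of acetylated length in the G1E replicates and 4.85 and 4.56 Mb in the G1E-ER4+E2 replicates, and the pooled ratio was 1.28. The acetylated share of the region divided by that of the rest was 1.15 and 1.27 in G1E and 1.37 and 1.45 in G1E-ER4+E2, with no overlap between the lines. The difference in this ratio was 0.202 (two-sided exact permutation test p = 0.333, adjusted p = 0.381, n = 2 each). It was 0.0692 against all other chromosomes in place of the rest of chromosome 7, 0.123 with peaks from the median enrichment of their list upward, and 0.124 between the pooled lists at equal covered length, that is with the G1E-ER4+E2 list cut by enrichment to the genome-wide length of the G1E list. The contrast rested on the part of the chromosome before the region, where the pooled ratio was 1.21, since after the region it was 1.52. Across the other 19 chromosomes the pooled ratio ran from 1.01 to 2.10 with a median of 1.38, and 5 of them exceeded the region, so the ratio of the region lay within the range of other chromosomes.

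**Figure D1:**
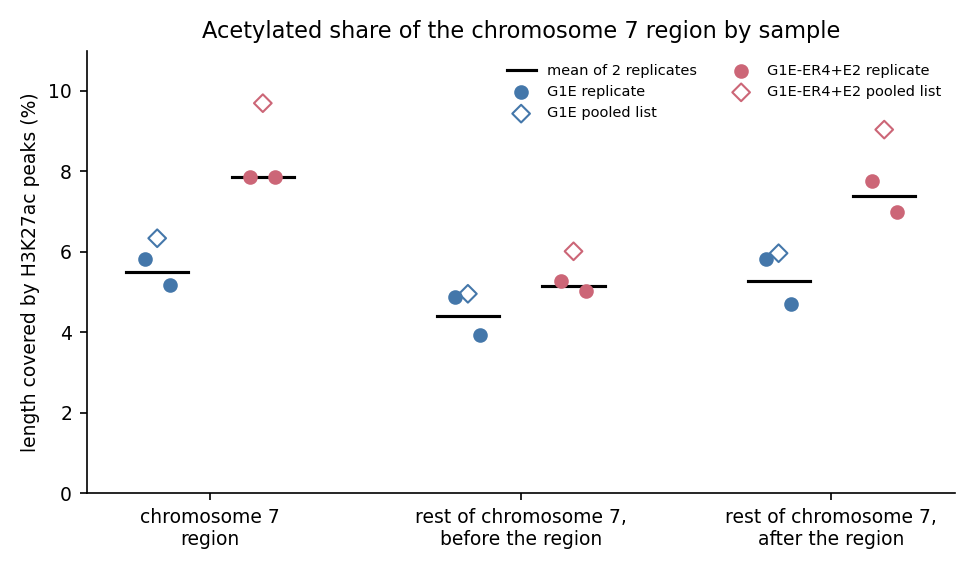
Percent of length covered by H3K27ac peaks (vertical axis) in the chromosome 7 region and in the parts of chromosome 7 before and after it. Filled circles are replicates, black bars their means (n = 2) and open diamonds the pooled lists. In the region the G1E-ER4+E2 replicates both sit at 7.87%, above the G1E replicates at 5.81% and 5.18%.

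Peaks were also more numerous in both G1E-ER4+E2 samples. There were 10.0 and 10.6 peaks per Mb in the G1E replicates and 13.9 and 13.5 in the G1E-ER4+E2 replicates, a difference of 3.42 (two-sided exact permutation test p = 0.333, adjusted p = 0.381, n = 2 each). The pooled lists held 11.4 and 12.8 peaks per Mb, a difference of 1.43. The median peak was 4200 and 3600 bp wide in the G1E replicates and 3800 bp in each of the G1E-ER4+E2 replicates. In the pooled lists the median was 3800 bp in G1E and 4800 bp in G1E-ER4+E2. The lists differ in the enrichment of the peaks they hold. The median fold enrichment in the region was 6.96 and 8.11 in the G1E replicates and 2.74 and 3.18 in the G1E-ER4+E2 replicates, and since the depth and the background behind each list are unknown these levels are given only as a property of the lists. Their part in the longer coverage was not tested. Taking the most enriched G1E-ER4+E2 peaks up to the genome-wide length of the pooled G1E list (14064 peaks), the region kept 4.07 Mb, 0.987 times its G1E length, and the rest of chromosome 7 kept 0.896 times its own. At that length the pooled peaks covered 6.25% of the region, beside 6.34% in G1E. Since this setting makes the genome-wide lengths equal, it compares the region with the genome and not the lengths of the lines. With peaks from the median enrichment of their list upward, the differences between the replicate means were 1.13 percentage points of acetylated share and 0.738 peaks per Mb. The density at equal covered length was 5.90 peaks per Mb, a difference from pooled G1E of -5.47.

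Of the 833 pooled G1E-ER4+E2 peaks in the region, 345 (41.4%, exact binomial 95% interval 38.0 to 44.8) met no G1E peak by even 1 bp. These are called gained. The share was 40.3% over all chromosomes and 31.5% (244 of 775) in the rest of chromosome 7. Gains in the region were therefore close to the genome-wide background and more frequent than on the rest of the chromosome. The same order was found in each of the 4 pairings of a G1E-ER4+E2 replicate with a G1E replicate, with 44.4 to 46.7% gained in the region, 32.0 to 38.1% in the rest, and a gap of 8.60 to 12.5 percentage points. The gained share in the region was 18.0% at equal covered length and 14.7% from the list median enrichment upward. Over all chromosomes it was 18.2% and 16.0%, and in the rest of chromosome 7 10.2% and 9.22%. The difference between region and rest was not tested, because neighbouring peaks are not replicates. Between replicates of the same line, 9.98 to 13.2% (G1E) and 9.89 to 10.5% (G1E-ER4+E2) of the region's peaks had no match, which is the error to set these shares against.

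Fewer peaks were lost than gained in the lists as deposited. Of the 740 pooled G1E peaks, 203 (27.4%, exact binomial 95% interval 24.2 to 30.8) met no G1E-ER4+E2 peak, against 29.7% over all chromosomes and 25.7% in the rest of chromosome 7. Pairs of replicates gave 25.2 to 29.4% in the region and 23.3 to 26.1% in the rest, a gap of 0.719 to 3.28 percentage points. This gap changed sign when peaks had to be covered over 50% of their length (31.5% against 32.1%) and when peaks of low enrichment were left out (14.0% against 14.9%). With G1E-ER4+E2 peaks kept to equal covered length the gap was larger, 48.9% in the region against 42.9% in the rest. Over all chromosomes the share was 44.6%, so the region was also above the genome-wide share. The order of gained and lost depended on the setting too. In the region, 14.7% were gained and 14.0% lost from the list median enrichment upward. At equal covered length, which cuts G1E-ER4+E2 peaks alone, 18.0% were gained and 48.9% lost, so the order turned.

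**Figure D2:**
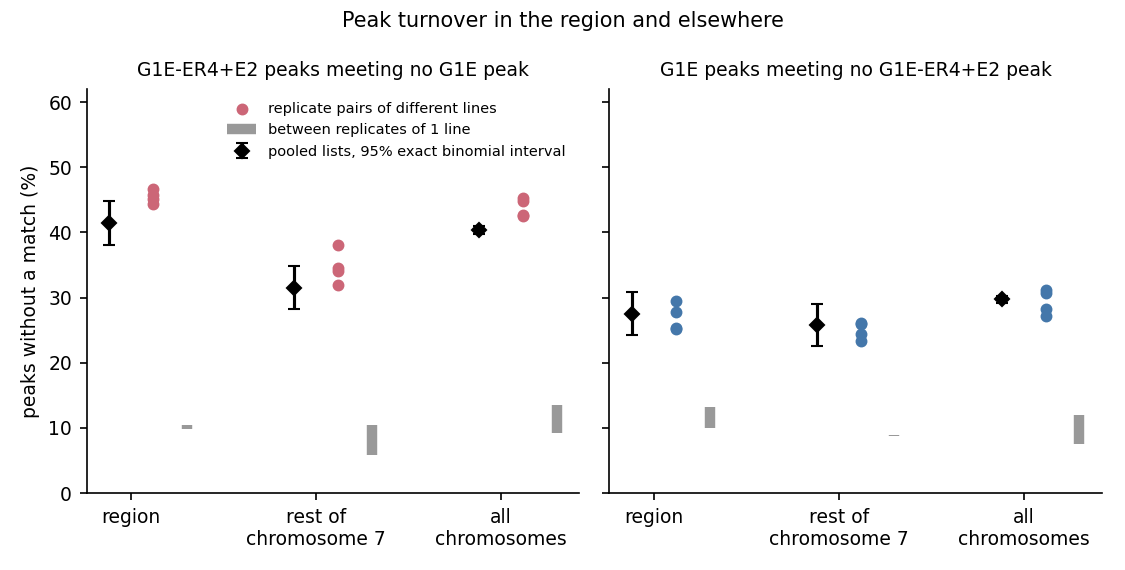
Percent of peaks without a match in the other cell line (vertical axis) for the region, the rest of chromosome 7 and all chromosomes. Diamonds are the pooled lists with exact binomial 95% intervals for counting error, coloured points the 4 pairs of replicates of different lines, and grey bars the range between replicates of the same line. Gained peaks make up 41.4% in the region and 31.5% in the rest of chromosome 7, and lost peaks 27.4% and 25.7%.

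A stricter definition kept the peaks that overlapped both replicates of their own line and none of the 3 lists of the other. By it, 221 of the 833 G1E-ER4+E2 peaks (26.5%, 23.6 to 29.7) were reproducibly gained, with 24.0% over all chromosomes and 19.5% in the rest of chromosome 7. Per unit length there were 3.40 reproducibly gained peaks per Mb in the region and 1.79 in the rest. They had a median width of 4200 bp, against 6400 bp for matched peaks, and covered 1.18 Mb. Reproducibly lost peaks numbered 116 of 740 (15.7%), with 17.7% over all chromosomes and 14.8% in the rest, and had a median width of 3000 bp.

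Counted in bases, 3.02 Mb of the region was acetylated in both pooled lists. That is 73.2% of the G1E length and 48.0% of the G1E-ER4+E2 length. The G1E-ER4+E2 list added 3.28 Mb, of which 1.59 Mb (48.5%) lay in gained peaks and 1.69 Mb beside bases already acetylated in G1E. These shares were near those over all chromosomes, where 70.6% of the G1E length and 49.3% of the G1E-ER4+E2 length was shared and 49.1% of the added bases lay in gained peaks. In the rest of chromosome 7 41.8% of the added bases did. Some G1E-ER4+E2 peaks joined several G1E peaks, as 66 G1E-ER4+E2 peaks (7.92%) each spanned 2 or more G1E peaks and as many as 6. The converse, a G1E peak spanning 2 or more G1E-ER4+E2 peaks, was seen for 40 (5.41%). Over all chromosomes these shares were 8.30% and 5.97%, and in the rest of chromosome 7 they were 8.90% and 5.41%, so joining and splitting were no more frequent in the region than elsewhere.

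The difference was spread unevenly along the region. The region was divided into 65 windows of 1 Mb counted from its start. In 31 of them (47.7%) both G1E-ER4+E2 replicates had more acetylated length than both G1E replicates, against 44.6% of 1-Mb windows over all chromosomes. In 10 (15.4%) both had less, against 22.9%. The replicates overlapped in the other 24, of which 11 held no peak in any list. The summed rise over windows was 2370.4 kb in the pooled lists and the summed fall 182.6 kb.

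Window 39 (chr7:108644203-109644202) had the largest pooled difference. It held 128.0 and 106.2 kb of acetylated length in the G1E replicates and 351.6 and 346.6 kb in the G1E-ER4+E2 replicates, and went from 139.2 to 444.8 kb in the pooled lists. Its pooled peaks numbered 25 in G1E and 54 in G1E-ER4+E2, and 27 of the latter were reproducibly gained, the most of any window in the region. Next came window 37 (chr7:106644203-107644202), with 134.8 and 117.4 kb against 253.2 and 261.2 kb, a pooled rise of 199.2 kb. Window 47 (chr7:116644203-117644202) went from 199.2 and 148.6 kb to 314.6 and 291.6 kb, a pooled rise of 145.6 kb, and holds no GHP segment. These 3 windows carried 27.4% of the summed rise and 53 of the reproducibly gained peaks.

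Windows 37 and 39 belong to a run of 6 adjacent windows, 34 to 39 (chr7:103644203-109644202), in each of which both G1E-ER4+E2 replicates were above both G1E replicates. The run was chosen after its values were seen. Together these windows held 0.590 and 0.543 Mb of acetylated length in the G1E replicates and 1.19 and 1.21 Mb in the G1E-ER4+E2 replicates. The pooled ratio was 2.34, and 83 reproducibly gained peaks and 15 reproducibly lost peaks lay there.

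Differences in the other direction were smaller. Window 5 (chr7:74644203-75644202) had 72.8 and 52.4 kb in the G1E replicates and 14.2 and 16.4 kb in the G1E-ER4+E2 replicates, with 6 reproducibly lost peaks and 0 gained. In window 44 (chr7:113644203-114644202) the lengths were 48.6 and 53.0 kb against 21.0 and 21.8 kb. In window 17 (chr7:86644203-87644202) they were 249.2 and 224.6 kb against 212.6 and 203.8 kb. Window 12 (chr7:81644203-82644202), singled out after its values were seen, held 8 peaks in the pooled G1E list and 0 in G1E-ER4+E2. Its acetylated length was 16.2 and 20.2 kb in the G1E replicates and 0 kb in both G1E-ER4+E2 replicates, where peaks, if any, were below the calling limit.

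Some windows were rich in both lines. Window 64 (chr7:133644203-134644202) had 373.4 and 316.2 kb in the G1E replicates and 354.0 and 336.2 kb in the G1E-ER4+E2 replicates, so the lines overlapped. Window 65 (chr7:134644203-135644202) overlapped too, with 264.0 and 196.8 kb against 277.6 and 259.8 kb. The largest G1E lengths were in windows 64, 17 and 65, and the largest G1E-ER4+E2 lengths in windows 39, 64 and 47. The longest stretch without a peak in all 6 lists was 4407 kb long (chr7:75386801-79793800). The segments GHP20 to GHP32 and GHN133 all lie in it.

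**Figure D3:**
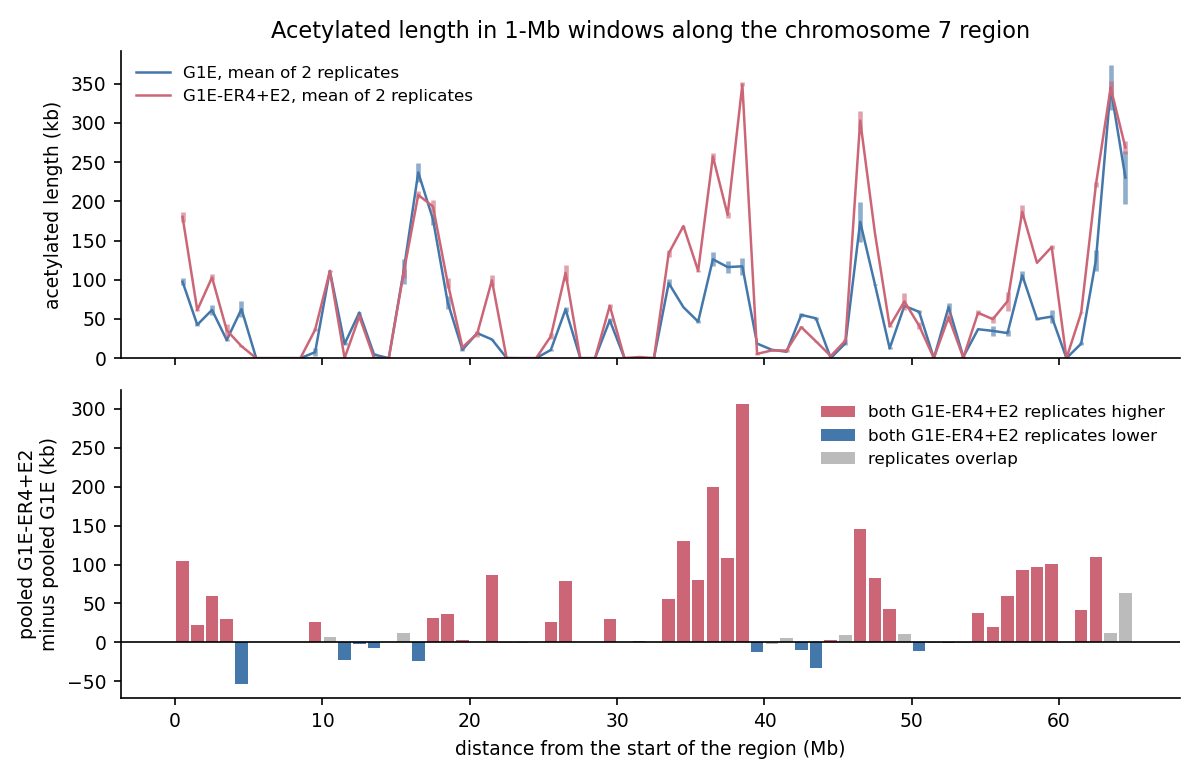
Upper panel, acetylated length per 1-Mb window (kb) against distance from the start of the region (Mb). Lines are means of 2 replicates and vertical bars join the replicates. Lower panel, pooled G1E-ER4+E2 minus pooled G1E length (kb), coloured by whether the replicates of the lines are apart or overlap. The tallest bar is window 39, which rose from 139.2 to 444.8 kb.

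The widest peaks of the pooled G1E list were 54.0 kb (chr7:127977401-128031400), 51.6 kb (chr7:80656801-80708400) and 48.4 kb (chr7:80724801-80773200). G1E-ER4+E2 peaks covered 53.0, 51.6 and 48.4 kb of them, so these domains stayed acetylated nearly throughout. In the pooled G1E-ER4+E2 list the widest was 93.6 kb (chr7:71112001-71205600) and held GHP3 and GHP4. It spanned 6 G1E peaks that covered 42.2 kb of it, and in the G1E-ER4+E2 replicates it was broken into 7 and 3 peaks covering 85.6 and 90.0 kb. The next were 72.4 kb (chr7:87624201-87696600) and 65.6 kb (chr7:91779001-91844600, with GHP106), of which pooled G1E peaks covered 23.4 and 14.4 kb.

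Among the reproducibly gained peaks, the highest enrichment was 6.0 at chr7:113759801-113763400, a peak of 3.6 kb that was 4.4 kb from the nearest G1E peak. It was 3600 bp wide in each G1E-ER4+E2 replicate. The next 4 had enrichments from 4.65 to 5.0, at chr7:105317801-105327600 (9.8 kb), chr7:73255001-73269800 (14.8 kb), chr7:106145401-106152600 (7.2 kb) and chr7:133404201-133406800 (2.6 kb). The widest was 26.8 kb (chr7:73271001-73297800) and began just after the end of the 14.8-kb peak named above. The others of the 5 widest were 25.8 kb (chr7:107229601-107255400), 25 kb (chr7:107872001-107897000), 20.6 kb (chr7:128813001-128833600) and the 14.8-kb peak, which tied in width with chr7:105412401-105427200.

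Among the reproducibly lost peaks, chr7:111462801-111465000 stood out with an enrichment of 38.3. It was 1200 and 2200 bp wide in the G1E replicates, with enrichments of 35.3 and 48.2, and lay 25.8 kb from the nearest G1E-ER4+E2 peak. The next 4 had enrichments from 13.6 to 15.2, at chr7:87919201-87931000 (11.8 kb), chr7:121595401-121599600 (4.2 kb), chr7:100327401-100328200 (0.8 kb) and chr7:73593201-73597000 (3.8 kb). The widest was 12 kb (chr7:121620201-121632200), close to the 4.2-kb peak, and they lay 199.4 and 174.6 kb from the nearest G1E-ER4+E2 peak. The others of the 5 widest were the 11.8-kb peak, 11.2 kb (chr7:118042801-118054000) and the peaks of 9.0 kb at chr7:113782001-113791000 and chr7:87252801-87261800, which tied in width with chr7:134421201-134430200. None of these gained or lost peaks held a GHP or GHN segment. Peaks were ranked by enrichment within a list only.

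A GHP or GHN segment counts as called where a peak reaches it by 1 bp or more. In G1E, 53 of the 120 were called in each replicate and 52 in the pooled list (43.3%, exact binomial 95% interval 34.3 to 52.7). In G1E-ER4+E2, 58 and 59 were called in the replicates and 60 in the pooled list (exact binomial 95% interval 40.7 to 59.3%). These shares were under those of all 267 tested segments outside the beta-globin interval, 54.7% in G1E and 65.9% in G1E-ER4+E2. The 136 tested segments that are neither GHP nor GHN, which include segments picked for TAL1 binding, had 68.4% and 82.4%.

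Most GHP segments had the same call in both lines. In the pooled lists 51 were called in both, 59 in neither, 9 in G1E-ER4+E2 alone and 1 in G1E alone. The counts of both G1E-ER4+E2 replicates lay above those of both G1E replicates. No p is given for this difference between the lines, since segments are not replicates of a cell line and some share a peak. Over all 6 lists, 50 segments were called in every list and 58 in none. The 7 called in all 3 G1E-ER4+E2 lists and no G1E list were GHP2, GHP105, GHP117, GHP164, GHP165, GHP170 and GHP310. Their pooled peaks ranged from 2.6 kb at GHP105 (chr7:91735512-91736060) to 41.2 kb at GHP2 (chr7:71096728-71097876). GHP164 (chr7:107727091-107727639), GHP165 (chr7:107833032-107833730) and GHP170 (chr7:108867273-108867821) lie in the run of windows 34 to 39. The reverse was seen for GHP219 (chr7:118020600-118021198), which lay in a 6.0-kb peak in the G1E lists alone.

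GHN segments were called in 1 of 11 cases in each G1E list (9.09%, exact binomial 95% interval 0.230 to 41.3). In G1E-ER4+E2, 3 were called in each replicate and 4 in the pooled list (36.4%, 10.9 to 69.2). The share of GHP segments called was 34.2 percentage points above that of GHN segments in G1E (p = 0.0282 by two-sided Fisher's exact test and 0.0751 after adjustment) and 13.6 points above it in G1E-ER4+E2 (p = 0.532, Fisher's exact test). The G1E-ER4+E2 difference was 21.1 and 21.9 points in the replicate lists. With peaks from the median enrichment of their list upward it was 30.9 points (p = 0.0524, Fisher's exact test, not adjusted), and the G1E difference was 25.1 points, so the order of the lines depends on this choice. Neither difference in the pooled lists passed the correction, and with 11 GHN segments the intervals are wide.

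GHN37 (chr7:73342768-73343574) was called in all 6 lists, in a peak 7.4 kb wide in pooled G1E and 18.2 kb wide in pooled G1E-ER4+E2. GHN391 (chr7:97306682-97307481) and GHN534 (chr7:107830001-107830921) were called in the 3 G1E-ER4+E2 lists alone. GHN534 lay in the same 17.2-kb pooled G1E-ER4+E2 peak as GHP165. That peak also met a pooled G1E peak, which reached neither segment, so it was not a gained peak. GHN159 (chr7:80593213-80593977) was called in the pooled G1E-ER4+E2 list alone, at an enrichment of 1.18, and in neither replicate. The other 7, GHN6, GHN133, GHN213, GHN240, GHN322, GHN419 and GHN478, lay outside the peaks of every list.

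**Figure D4:**
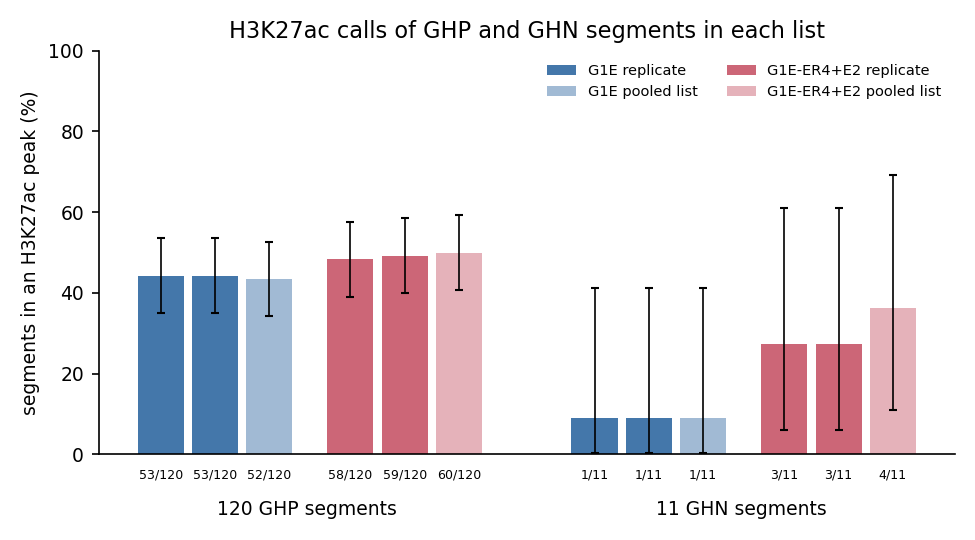
Percent of segments lying in an H3K27ac peak (vertical axis) for the 120 GHP and 11 GHN segments in each list, with exact binomial 95% intervals and the counts under the bars. GHP calls go from 52 to 60 and GHN calls from 1 to 4 between the pooled G1E and pooled G1E-ER4+E2 lists.

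Gained and lost peaks made up smaller shares of the peaks that hold GHP segments than of the others in the region. Of the 54 G1E-ER4+E2 peaks holding one, 5 were gained (9.26%, exact binomial 95% interval 3.08 to 20.3), against 340 of the 779 others (43.6%). Of the 47 G1E peaks holding one, 1 was lost (2.13%), against 202 of 693 (29.1%). They were also wider, with medians of 13.5 kb against 4.6 kb in G1E-ER4+E2 and 7.8 kb against 3.6 kb in G1E. Their median enrichment was higher, 4.55 against 2.51 in G1E-ER4+E2 and 9.51 against 5.39 in G1E (here with the peak crossing the border). Enrichment was not matched in what follows. Peaks of at least 7.1 kb, the lower quartile of those holding a segment, were then taken from both sets. Of these G1E-ER4+E2 peaks, 0 of 40 holding a segment (exact binomial 95% interval up to 8.81%) and 53 of 230 others (23.0%, 17.8 to 29.0) were gained. The 40 remained wider, with a median of 19.6 kb against 11 kb. Of G1E peaks of at least 4.9 kb, set in the same way, 1 of 35 holding a segment (2.86%, 0.0723 to 14.9) and 25 of 245 others (10.2%, 6.71 to 14.7) were lost. These differences were not tested.

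Where a GHP segment was acetylated in all 6 lists, its peak tended to be wider in G1E-ER4+E2. Over these 50 segments the median peak was 7.7 and 7.4 kb in the G1E replicates and 10.8 and 12.1 kb in the G1E-ER4+E2 replicates. The peak was wider in both G1E-ER4+E2 replicates than in both G1E replicates for 28 segments (56.0%), narrower in both for 8, and overlapping for 14. Of the 425 pooled G1E peaks in the region that met a peak in every other list, 37.9% were wider by the same measure and 24.2% narrower. Up to 2 segments share a peak, so segments are not all separate observations.

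The calls were set beside the binding of GATA1 and its partners, as marked for each segment in the study's annotation from erythroid cells. GATA1 bound 55 of the 120 GHP segments in G1E-ER4+E2 cells, and 53 of them (96.4%, exact binomial 95% interval 87.5 to 99.6) had H3K27ac in that line. In G1E, which has no GATA1, 47 of the same 55 (85.5%, 73.3 to 93.5) were already acetylated. Of the 65 GHP segments without GATA1, 7 (10.8%) and 5 (7.69%) were called. Of the 9 segments called in G1E-ER4+E2 alone, 6 were bound by GATA1.

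The other annotated features were read in the same way. Among the 36 with TAL1, the basic helix-loop-helix partner of GATA1, 35 were called in G1E-ER4+E2 and 32 in G1E, and among the 84 without it 25 and 20. Among the 40 with EP300, mapped in the erythroleukemia line MEL, the counts were 38 and 34, and among the 80 without it 22 and 18. All 13 with SMAD1, the BMP signal transducer, were called in both lines, and of the 107 without it 47 and 39 were. SMAD1 was mapped in G1E-ER4+E2 cells also given BMP4, a treatment not listed for the H3K27ac samples. Of the 63 in DNase hypersensitive sites, marks of open chromatin, 55 and 51 were called, and of the 57 outside them 5 and 1. For H3K4me1, found at enhancers, 59 and 51 of 74 were called, and without it 1 and 1 of 46. For H3K4me3, found at promoters, 49 and 44 of 54 were called, and without it 11 and 8 of 66. With CAGE tags, which mark transcript starts, 34 and 31 of 41 were called, and without them 26 and 21 of 79. Among the 23 segments with H3K27me3, the Polycomb mark, 2 were called in G1E-ER4+E2 and 1 in G1E, and among the 97 without it 58 and 51. Among the 18 with H3K9me3, found in heterochromatin, 3 and 2 were called, and among the 102 without it 57 and 50. The features overlap and were mapped in differentiated or related cells, and the shares were not tested.

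Enhancer activity is the fold change of luciferase expression over the parental plasmid in transfected K562 cells. These are human cells, not the mouse cells of the H3K27ac samples. Each segment was classed as active, in a threshold zone or inactive. The median fold change was 1.41 over the 120 GHP segments (quartiles 0.872 and 2.03) and 0.891 over the 11 GHN segments. Of the GHP segments 32 were active (26.7%, exact binomial 95% interval 19.0 to 35.5), 25 fell in the threshold zone and 63 showed no activity. By the study's counts the active share over all its tested segments, which include segments picked for TAL1 binding, was higher. Of the GHN segments 0 were active, which allows a share of up to 28.5% by the same interval. The difference in the active share did not pass the test (p = 0.0647 by two-sided Fisher's exact test and 0.129 after adjustment).

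Active enhancers were more frequent among the acetylated GHP segments. Of the 60 with H3K27ac in G1E-ER4+E2, 28 were active (46.7%, exact binomial 95% interval 33.7 to 60.0) and the median fold change was 1.93. Of the 60 without it, 4 were active (6.67%, 1.85 to 16.2) and the median was 1.13. The active share differed by 40.0 percentage points (p = 7.98e-07 by two-sided Fisher's exact test and 6.39e-06 after adjustment). This test takes segments as units, although some share a peak and GHP20 to GHP32 lie in the same stretch without peaks. GATA1 binding and H3K27ac nearly coincided, with 53 of 55 bound and 7 of 65 unbound segments called, so the test does not separate them. The study had already reported higher activity of tested segments with H3K27ac, and rare activity where active marks lacked bound factors.

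When the lines were read together, 27 of the 32 active GHP segments were acetylated in both. Of the 51 GHP segments called in both lines 27 were active (52.9%, 38.5 to 67.1), of the 9 called in G1E-ER4+E2 alone 1 was (11.1%, 0.281 to 48.2), and of the 59 called in neither 4 were (6.78%, 1.88 to 16.5). GATA1 binding was considered next. Of the 53 GHP segments with both GATA1 and H3K27ac in G1E-ER4+E2, 27 were active (50.9%). Of the 7 with H3K27ac without GATA1, 1 was (14.3%), and of the 58 with neither, 4 were (6.90%). Of the 2 with GATA1 but no H3K27ac, 0 were. Among the 4 GHN segments with H3K27ac 0 were active. The smaller groups leave wide intervals, and these shares were not tested against each other.

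**Figure D5:**
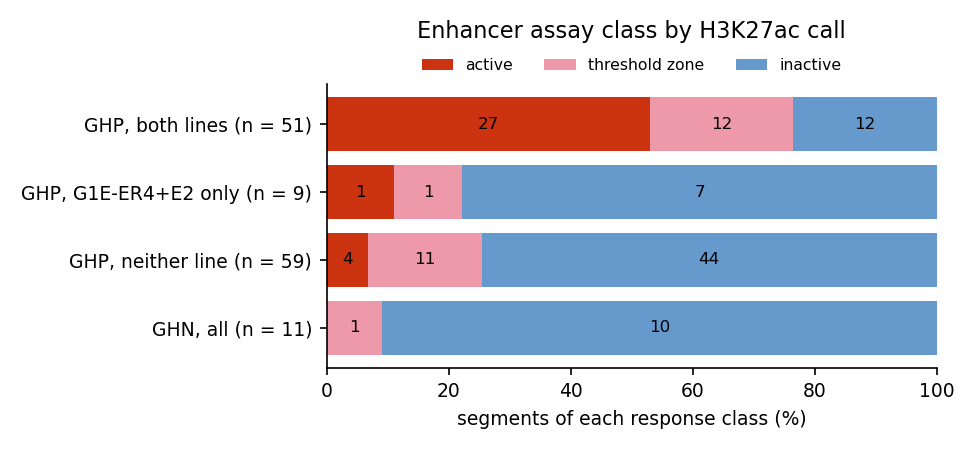
Percent of segments in each response class of the enhancer assay (horizontal axis), for GHP segments grouped by H3K27ac call in the pooled lists and for all GHN segments. Numbers in the bars are segments. Active segments are 27 of 51 where both lines have H3K27ac, 1 of 9 where G1E-ER4+E2 alone has it, 4 of 59 where neither has, and 0 of 11 GHN.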

How the data were processed

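H3K27ac ChIP-seq peaks were deposited for each of the 4 samples and, for each cell line, as a pooled list. Per the labels and the submitters' processing notes, the authors used bcl2fastq 1.8.4, Bowtie 1.0.0 and SICER 1.1 with build mm9; roles, parameters, controls and the way replicates were pooled are not given in the sources used here. The deposited columns hold a fold enrichment (a linear ratio), the p-value of each peak and its q-value, as the authors' caller wrote them; the p-values were not used. All q-values were at most 0.01 and peak borders lay on a 200-bp grid. Read counts are absent from the lists and the depth is unknown. Peaks were ranked and filtered by enrichment within a list only.

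From the lists, covered length, peaks per Mb, overlaps of at least 1 bp, and 1-Mb windows were computed with Python 3.11.15, NumPy 2.4.6, pandas 2.3.3 and SciPy 1.17.1, and checked on simulated data. Figures were drawn with Matplotlib 3.10.9. The rest of chromosome 7 was taken from its first to its last peak base (84.3 Mb). Segment positions, features, fold changes and response classes came from the study's supplementary tables, and only summaries over groups were made from them. GHP6 is listed 2 times and was counted once, with the mean of its fold changes. Intervals are exact binomial (Clopper-Pearson) at 95% and cover counting error only. Two-sided exact permutation tests compared samples, Fisher's exact tests compared segments, and a McNemar test of GHP calls between the lines entered the adjustment but is not reported, since segments are not replicates of a line. The Benjamini-Hochberg adjustment was made over the 8 p-values (threshold 0.05). Named peaks were the 3 widest of each pooled list, the 5 most enriched and the 5 widest reproducibly gained, and likewise lost, peaks; named windows were the 3 with the largest length in each line, rise and fall; named segments were all GHN and the GHP segments with calls in all 3 lists of 1 line and none of the other. The region, the segments and the lists were chosen with earlier results of these data known. Gene names and peak sequences were not used here, since no annotation or genome of the same build was at hand, and the cell line labels were for the same reason not checked against a marker gene or Gata1.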

Additional observations from a re-analysis of the deposited data

How the results depend on the processing

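The acetylated share, the region-to-rest ratio and the peak density were higher in G1E-ER4+E2 under every alternative run on the replicate lists. Where 2 against 2 samples could be tested without the block, p was 0.333, the smallest they allow. The sizes depended on the filter. With the enrichment minimum the differences were 1.13 percentage points, 0.123 and 0.738 peaks per Mb, and with q at most 1e-10 they were 1.89, 0.217 and 1.56. At equal covered length in the pooled lists, an alternative chosen for these measures after seeing the data and run without a test, the share was -0.0855 points and the density -5.47 peaks per Mb (G1E-ER4+E2 minus G1E), both turned in direction, while the ratio difference was 0.124. By construction this setting removes G1E-ER4+E2 peaks. Without single replicates the difference in acetylated share ran from 2.05 to 2.69 percentage points, that in the region-to-rest ratio from 0.143 to 0.262 and that in peaks per Mb from 3.12 to 3.72. Set against all other chromosomes instead of the rest of chromosome 7, the difference in the ratio was 0.0692. With the replicate number as a block the differences stayed at 2.37, 0.202 and 3.42 (exact sign-flip test p = 0.5, the smallest that 2 pairs allow). The replicate differences of the 2 lines correlated at 0.453 over 2181 windows, but the labels do not tie the numbers together, so the pairing was not used.

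The share of gained peaks depended on the definition. It was 41.4% in the pooled lists, 45.8, 46.7, 44.4 and 45.1% in the pairs of replicates, 53.8% when a peak had to be covered over 50% of its length, 14.7% for peaks from the list median enrichment upward, 26.5% for reproducible gains and 18.0% at equal covered length, and in each case it was above the rest of chromosome 7. The share of lost peaks, 27.4%, became 25.3 and 25.2% in the pairs with G1E replicate 1, 31.5% with 50% coverage, 14.0% with the enrichment minimum, 15.7% when reproducible and 48.9% (42.9% in the rest, 44.6% over all chromosomes) at equal covered length, where fewer G1E-ER4+E2 peaks remain to be met. With the enrichment minimum, the GHP-GHN difference in G1E fell to 25.1 points (Fisher's exact test p = 0.104) while that in G1E-ER4+E2, 13.6 points in the pooled lists, was 30.9 (p = 0.0524, Fisher's exact test). The share of GHP segments called was higher in G1E-ER4+E2 than in G1E by 6.67 points in the pooled lists, 4.17 in the replicate 1 lists, 5.0 in the replicate 2 lists and also for peaks in both replicates, and 5.83 with the enrichment minimum. With the threshold zone counted as active, the GHP-GHN difference in activity was 38.4 points (p = 0.0226, Fisher's exact test, not adjusted). The cause of these changes was not tested. The difference in active share between GHP segments with and without H3K27ac passed the threshold under every alternative run. Unknown depth limits any reading of an absent peak.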
